A study of Arabidopsis thaliana with 12 samples.

Results

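COR27 (AT5G42900), AT4G33980, AT1G07050 and GI (AT1G22770) are 4 of the 13356 named genes on the ATH1 expression array, each read by 1 probe set. They were chosen by their values on the current arrays, which were uneven from array to array. Those values are therefore given below as a description, without a test. The platform and reference tables name COR27 a cold regulated gene and GI the clock gene GIGANTEA, and give AT4G33980 and AT1G07050 no symbol beyond the locus identifier. A name as a cold or evening gene is thus annotated here for COR27 and GI only. The values were uneven for COR27, AT4G33980 and AT1G07050, whereas the SD of GI among the current arrays, 0.32, was close to its SD of 0.28 among the no-current arrays.

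Leaves came from 5-week-old Arabidopsis thaliana plants of accession Col-0, grown on soil, 1 per pot, with 10 h of light a day, and were read on 12 arrays in 4 groups of 3. Leaf 13 was taken from unwounded plants, or 1 h after the apical 40% of leaf 8 of the same plant had been wounded with forceps. In the other experiment, a platinum wire was set in the petiole of leaf 8, and the blade was taken 1 h after 40 µA had passed for 10 s, or from wired leaves without current. Since no label tells if a replicate was a plant of its own or a pool, p-values reflect only how far these samples differ, possibly for technical reasons. The hour of harvest is not given in the sources used here. Values are log2 expression values from RMA (robust multi-array average), which equalises intensities between arrays, and 3 arrays per group limit the precision. In whole leaves, fewer cells that express a gene and less RNA per cell cannot be told apart.

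The plant circadian clock is a loop of regulators that repress one another in turn, some expressed around dawn and others toward evening. GI is a large plant protein of the evening phase. It stabilises a light-sensing F-box protein, acts in photoperiodic flowering and has a part in freezing tolerance. COR27 was described as a gene induced by cold, under clock control, and its protein represses evening-phased clock genes and acts in light signalling. The cold response and the clock are linked in Arabidopsis in that the clock gates how strongly cold genes respond at a given time of day.

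COR27 had the largest spread among current arrays of all named genes. It read 8.47, 8.35 and 8.24 in the wired leaves without current and 8.23, 5.99 and 4.07 in current replicates 1, 2 and 3. Current replicate 1 lay just under the control arrays, by 0.02, replicate 3 was far below them and replicate 2 stood between. The highest and lowest current arrays were 17.9-fold apart. In leaf 13 the gene read 2.72, 2.61 and 2.52 without wounding and 3.21, 2.80 and 3.02 after distal wounding, close to the lower end of the scale, where the lowest deposited value is 1.46. In order, the mean level was 8.35 ± 0.11 (SD, n = 3) without current, 6.10 ± 2.08 after current, 3.01 ± 0.21 after wounding and 2.61 ± 0.10 in unwounded plants. The current mean differed from the no-current mean by -2.26, about as much as the SD of its own arrays, and its arrays all lay above those of leaf 13. The wounded and unwounded levels differed by more than their spread.

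AT4G33980 showed the same array order with a different spacing. Its wired leaves without current read 7.24, 7.11 and 7.27, and current replicates 1, 2 and 3 read 6.48, 3.48 and 3.15. Here replicates 2 and 3 lay close together, and replicate 1 alone stayed near the controls. All 6 arrays of leaf 13 were low, at 2.47, 2.22 and 2.09 without wounding and at 2.33, 2.38 and 2.34 after it, and these groups overlapped. The mean fell in the order 7.21 ± 0.08 without current, 4.37 ± 1.84 after current, 2.35 ± 0.03 after wounding and 2.26 ± 0.19 in unwounded plants, and the lowest levels, those of leaf 13, did not differ beyond their spread.

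AT1G07050 followed COR27 most closely. It read 8.08, 7.88 and 7.65 in wired leaves without current and 7.54, 6.11 and 4.30 in current replicates 1, 2 and 3. Its lowest current array was down to the range of leaf 13 on wounded plants, which read 4.56, 4.17 and 4.44. Unwounded plants were lower, at 2.62, 2.78 and 2.78, and did not overlap with any other group. The order of the means was 7.87 ± 0.21 without current, 5.98 ± 1.63 after current, 4.39 ± 0.20 after wounding and 2.73 ± 0.09 in unwounded plants. The current and wounded means were closer together than the SD of the current arrays.

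GI varied on a smaller scale. It read 8.73, 8.18 and 8.37 in wired leaves without current, and 8.16, 7.75 and 7.52 in current replicates 1, 2 and 3, again with replicate 1 highest and replicate 3 lowest. In leaf 13 it was well above the low end, at 7.08, 7.13 and 7.40 without wounding and 7.15, 7.18 and 7.45 after it. The means were 8.43 ± 0.28 without current, 7.81 ± 0.32 after current, 7.26 ± 0.16 after wounding and 7.21 ± 0.17 in unwounded plants. Both levels of leaf 13 overlapped, and the no-current and current arrays were separated by 0.02 only.

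**Figure D1:**
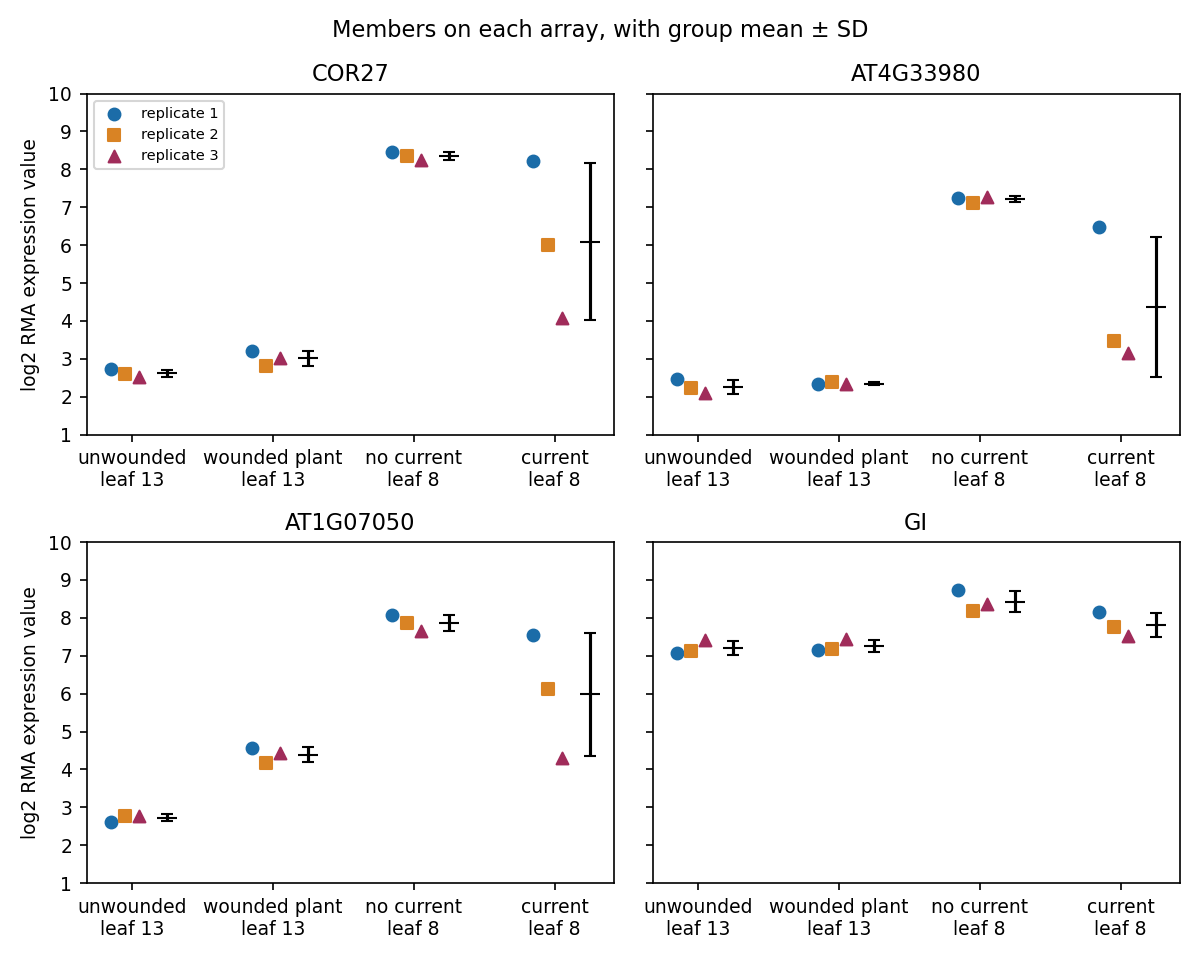
The log2 RMA expression value of each of the 4 genes (vertical axis, the same in each panel) on every array, by group, with symbols for the replicate number and bars for the group mean ± SD (n = 3). The current arrays of COR27, AT4G33980 and AT1G07050 spread over more than 3 log2 units, while the arrays of the other groups lie close together.

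Every current array lay below every no-current array for 4 of the 4 genes, as it did for 9.59% of all named genes. This comparison is the one by which they were chosen, so nothing is read from the count. The differences of the means were -2.26 for COR27, -2.84 for AT4G33980, -1.89 for AT1G07050 and -0.62 for GI. By size of fall, AT4G33980, COR27 and AT1G07050 had ranks 1, 2 and 3 among the 13356 genes, and GI rank 146. Without current replicate 1, the differences were -3.32, -3.89, -2.66 and -0.79, and without current replicate 3 they were -1.24, -2.22, -1.04 and -0.47, so the size depended on which array was counted.

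A large spread after current was a feature of few genes. The SD among current arrays was 2.08 for COR27, 1.84 for AT4G33980 and 1.63 for AT1G07050, ranks 1, 2 and 3 of all named genes, and 0.32 for GI, rank 946. The median over all genes was 0.13 in that group, and 0.11, 0.12 and 0.12 in the unwounded, wounded and no-current groups. The next genes were AT5G12340, with an SD of 1.35, and AT1G17665, with 1.34. A range of at least 2 among the 3 arrays was found for 9 genes after current, 4 without current, 0 after wounding and 2 in unwounded plants. As whole arrays the current replicates stood apart little: the r within a group was from 0.991 to 0.996 over all probe sets, and the lowest belonged to a current pair. Pairs of a current and a no-current array had r from 0.981 to 0.991. The highest of these, 0.9908, was above that lowest current pair, 0.9905.

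Replicate 1 highest and replicate 3 lowest was the commonest order among genes that spread after current. Of 189 genes with a range of at least 1 among the current arrays, 65 (34.4%) had that order and 39 (20.6%) the opposite order. Genes share their arrays, so these shares describe 3 arrays and are not a test.

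Jasmonate genes, which rise when leaves are wounded, ordered the current arrays in another way. All 7 measured genes of the jasmonate list were highest in current replicate 2, with a list mean of 7.09 there, 6.23 in replicate 1 and 6.22 in replicate 3, against 4.56 to 4.86 on the no-current arrays. ORA47, a jasmonate-induced transcription factor gene, read 5.49, 6.55 and 5.91 in current replicates 1, 2 and 3. OPCL1, a ligase of jasmonate synthesis, read 9.76, 10.56 and 9.87. COR27 and AT1G07050 were nearest to the controls in replicate 1 and farthest in replicate 3, and the list means of these arrays were about equal. Single genes differed in both directions: AT2G38240 read 6.26 in replicate 1 and 5.82 in replicate 3, and ORA47 5.49 and 5.91. The relation of the jasmonate genes to the spread was not tested. This list was chosen with its rise in these data known. Among the 189 genes with a range of at least 1 on the current arrays, the orders with replicate 2 highest made up 15.9% and 17.5%. The share over all named genes was not counted, so nothing is read from the count of 7.

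Of 5 measured cold-induced genes, 4 were also lowest in current replicate 3. Among the 189 genes with a range of at least 1 there, the orders with replicate 3 lowest made up 34.4% and 15.9%. The cold genes ranged less than that, and the share over all named genes was not counted, so nothing is read from this. The list holds 31 genes, and those measured were COR15A and COR15B, which encode chloroplast proteins, the dehydrins COR47 and LTI30, and STZ, a zinc finger repressor also induced by other stresses. COR15B read 11.38, 11.15 and 10.58 in current replicates 1, 2 and 3, against 11.76, 11.58 and 11.48 without current. COR15A read 11.88, 11.77 and 11.41, and COR47 11.31, 11.26 and 11.05. LTI30 read 8.58, 8.63 and 7.76. These 4 were lowest in current replicate 3, as were COR27, AT4G33980, AT1G07050 and GI. They ranged over 0.25 to 0.88 (log2) on the current arrays, where GI ranged over 0.64 and the other 3 genes over 3.24 to 4.16. STZ went the other way, with 6.66, 7.64 and 7.23 after current against 6.03 to 6.13 without, so that its lowest current array was replicate 1. After current, limma called 1 of the 5 cold genes higher, where 2.38% of all genes were called higher: STZ rose by 1.11 (SE 0.26, limma adjusted p = 0.0278). The list median was -0.32, against -0.02 for all genes. Leaving out no-current replicate 1, 2 or 3 ended the call of STZ (limma adjusted p = 0.0890, 0.0612 and 0.0920), as did leaving out current replicate 2 (0.153) or 3 (0.0633) and a robust trend (0.0833). Without current replicate 1, COR15B and COR47 passed as well, at -0.74 and -0.43 (limma adjusted p = 0.0163 and 0.0469).

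**Figure D2:**
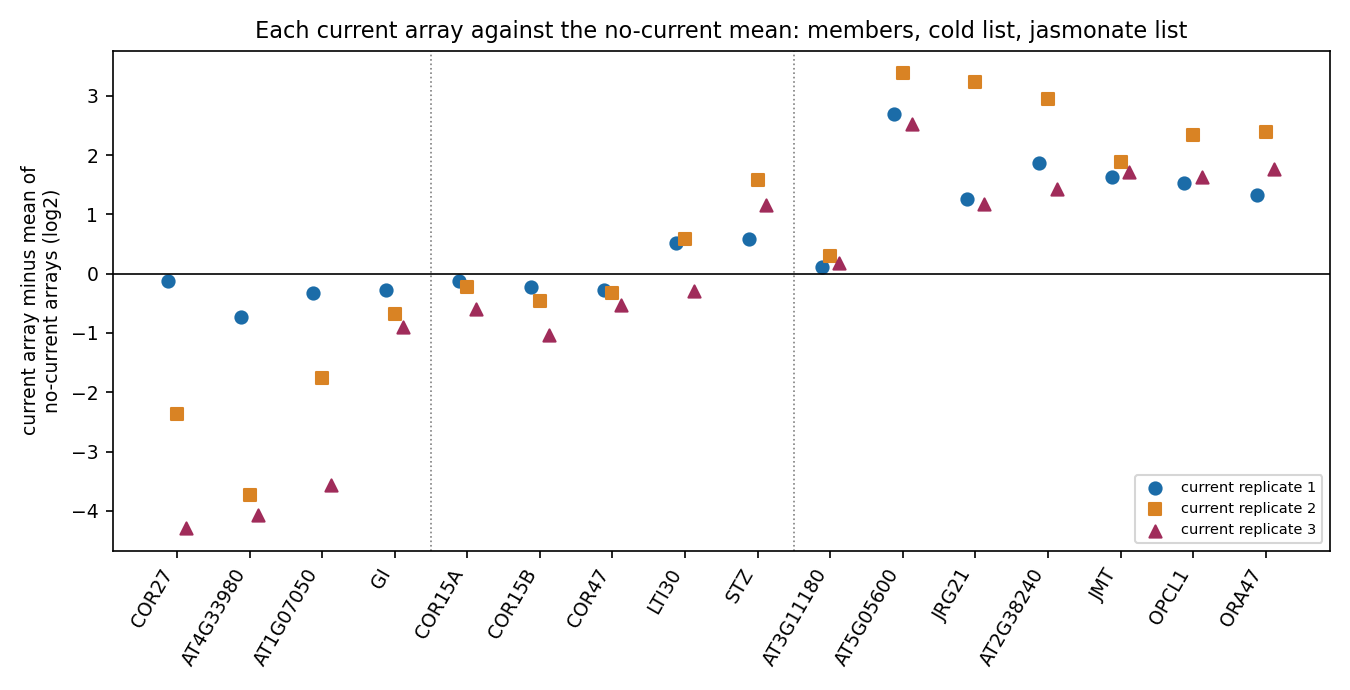
Each current array minus the mean of the 3 no-current arrays, on the log2 scale, for the 4 genes, the 5 measured cold genes and the 7 jasmonate genes, separated by dotted lines. Current replicate 3 (triangles) is lowest for the 4 genes, COR15A, COR15B, COR47 and LTI30, whereas replicate 2 (squares) is highest for the 7 jasmonate genes.

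After distal wounding, AT1G07050 rose in leaf 13, and the other 3 genes did not pass the test in the fit of all arrays. AT1G07050 rose by 1.66 (SE 0.51, limma adjusted p = 0.0415, higher in 3 of 3 arrays). COR27 was at 0.40 (SE 0.64, limma adjusted p = 0.798), AT4G33980 at 0.09 (SE 0.57, limma adjusted p = 0.962) and GI at 0.06 (SE 0.17, limma adjusted p = 0.903). So 1 of 4 was called higher, where 5.81% of all named genes were. Arrays of wounded plants lay above all unwounded arrays for COR27, by 0.08, and for AT1G07050, by 1.39, which is 2 of 4 against 10.6% of all genes. These 2 of 4 genes were thus higher on every wounded array and lower on every current array, as were 0.232% of all genes, but the fall after current served to choose them.

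For COR27, AT4G33980 and AT1G07050 these errors were set mostly by the current arrays. The fit gives all 4 groups of arrays 1 shared variance per gene, so the spread after current widens the error of a wound comparison that holds no current array. Without the 3 current arrays, a fit chosen after seeing the data, the SE of COR27 was 0.11 in place of 0.64 that of AT1G07050 0.13 in place of 0.51, and that of GI 0.14 in place of 0.17. AT1G07050 was then far past the threshold (limma adjusted p = 5.85e-07), COR27 passed at 0.40 (limma adjusted p = 0.0315), and AT4G33980 and GI did not (limma adjusted p = 0.701 and 0.880). That makes 2 of 4 called higher, where 6.15% of all genes were. In the fit of all arrays AT1G07050 lost its call without any 1 of the 6 leaf 13 arrays (limma adjusted p from 0.0826 to 0.117). In the fit without current arrays it kept it throughout (limma adjusted p at most 9.50e-06), while COR27 missed the threshold when unwounded replicate 2 (limma adjusted p = 0.0896) or 3 (0.123) or wounded replicate 1 (0.120) or 3 (0.0867) was left out. COR27 was near the low end in leaf 13, where 17.2% to 32.1% of probe sets read lower, and its rise was small beside the difference between leaves.

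**Figure D3:**
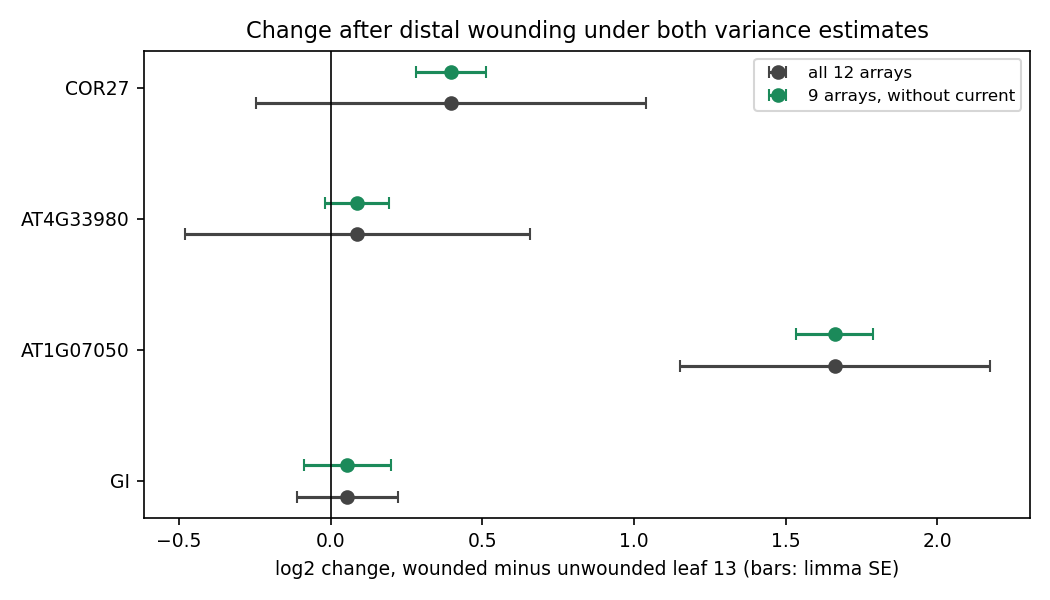
The log2 change of each gene in leaf 13 after distal wounding (horizontal axis), with limma's SE as bars, from the fit of all 12 arrays and from the fit of 9 arrays without the current group. The changes are identical in both, and the bars of COR27, AT4G33980 and AT1G07050 are several times shorter without the current arrays.

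The other genes of these pathways rose after wounding in the cold and morning clock lists. The cold list, with 5 of its 31 genes measured, was written with earlier results of these data known, so its count is a description. It does not hold COR27, which was not called in the same fit. All 5 measured cold genes rose, 5 of 5 against 5.81% of all genes, with a list median of 0.88 against -0.03 for all genes. Of these COR47 rose by 0.84 (SE 0.10) and COR15A by 0.88 (SE 0.11), and STZ rose by 3.83 (SE 0.26). COR15B rose by 0.64 (SE 0.17), a call that ended when unwounded replicate 2 (limma adjusted p = 0.0734) or wounded replicate 3 (0.101) was left out. Beside this rise, the vascular marker SWEET11 fell by 0.48 (SE 0.15, limma adjusted p = 0.0477), a call that ended without any 1 of the 6 leaf 13 arrays (limma adjusted p from 0.0600 to 0.155). It also ended with median centring (limma adjusted p = 0.0965) and the replicate block (limma adjusted p = 0.118), and its part in the rise was not tested. AT5G52660, the 1 measured gene of 15 in the morning clock list, rose by 0.73 (SE 0.13, limma adjusted p = 0.0011), from 5.80, 5.91 and 5.59 to 6.36, 6.51 and 6.62. HYH, a homolog of the light-signalling factor HY5 and the 1 measured gene of 15 in the light list, was at 0.51 (SE 0.21, limma adjusted p = 0.131), and passed without the current arrays (limma adjusted p = 0.0346). SPY, a repressor of gibberellin signalling that acts with GI and is the 1 measured gene of 13 in the flowering list, was at 0.05 (SE 0.09, limma adjusted p = 0.810). GI was the 1 measured gene of 16 in the evening clock list, so the clock is seen here through 2 genes.

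The largest contrast for these genes was between the control leaves. Wired leaf 8 without current exceeded leaf 13 of unwounded plants by 5.74 for COR27 (SE 0.64, limma adjusted p = 1.21e-05). No fold is given, since the unwounded arrays of COR27, AT4G33980 and AT1G07050 read near the low end, above only 5.36% to 24.1% of probe sets, and whether they were above background is not known. The difference was 5.14 for AT1G07050 (SE 0.51, limma adjusted p = 4.58e-06), 4.95 for AT4G33980 (SE 0.57, limma adjusted p = 1.45e-05) and 1.22 for GI (SE 0.17, limma adjusted p = 6.23e-05). COR27, AT1G07050 and AT4G33980 had ranks 1, 2 and 3 among all named genes for this difference, and GI rank 251. The next gene, AT5G47330, was at 4.18. All arrays of wired leaf 8 lay above all unwounded arrays for 4 of the 4 genes, against 22.1% of all genes, and 4 of 4 were called higher, against 16.6%.

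Leaf position, the wire and the experiment differ together in this comparison and cannot be told apart. The no-current arrays are also the controls of the comparison by which the genes were chosen, and a gene has to be high there to fall far, so these p-values do not stand apart from the choice. Without the current arrays, the SE of COR27 fell to 0.11 and that of GI to 0.14, and 4 of 4 were called higher, against 17.3% of all genes. In the fit of all arrays the 5 cold genes were called higher in wired leaf 8 as well, 5 of 5 against 16.6% of all genes. Their list median was 2.25, against -0.02 for all genes. The list was written with earlier results of these data known, so this count is a description too. AT5G52660 was higher by 0.71 (SE 0.13) and SPY by 0.47 (SE 0.09), while HYH was at 0.25 (SE 0.21, limma adjusted p = 0.417).

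Markers of other cell types and 1 of the 2 measured senescence markers differed between these leaves too. Guard cell genes were lower in wired leaf 8. FMA and AT1G22690, the 2 measured of 4 guard cell markers, were lower in wired leaf 8 by 0.99 and 2.36 (log2), and the mean of both ranged from 5.12 to 5.64 there and from 6.88 to 7.16 in unwounded leaf 13. SWEET11, a sucrose exporter of the phloem and the 1 measured of 4 vascular markers, was higher there by 0.70 (SE 0.15, limma adjusted p = 0.00254). WRKY53, a transcription factor gene of leaf senescence, was higher by 1.79 (SE 0.15, limma adjusted p = 1.21e-06), while SAG29, the other measured senescence marker of 3, was at -0.09 (limma adjusted p = 0.705). The part of cell make-up or leaf age in the difference between leaves was not tested. Photosynthesis genes marked all arrays as green leaf, with a mean of the 3 measured markers from 12.6 to 12.8. The mean of the root markers PYK10 and EXPA7 was from 2.59 to 2.93. On the current arrays the guard cell mean was from 5.26 to 5.30, but its 2 genes ran in opposite orders. FMA was highest in current replicate 1 and lowest in replicate 3, and AT1G22690 the reverse. In current replicates 1, 2 and 3, SWEET11 read 9.46, 8.91 and 8.97 and SAG29 read 4.18, 3.94 and 3.66. WRKY53 was highest in current replicate 3. The part of cell make-up or leaf age in the spread after current was not tested.

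**Figure D4:**
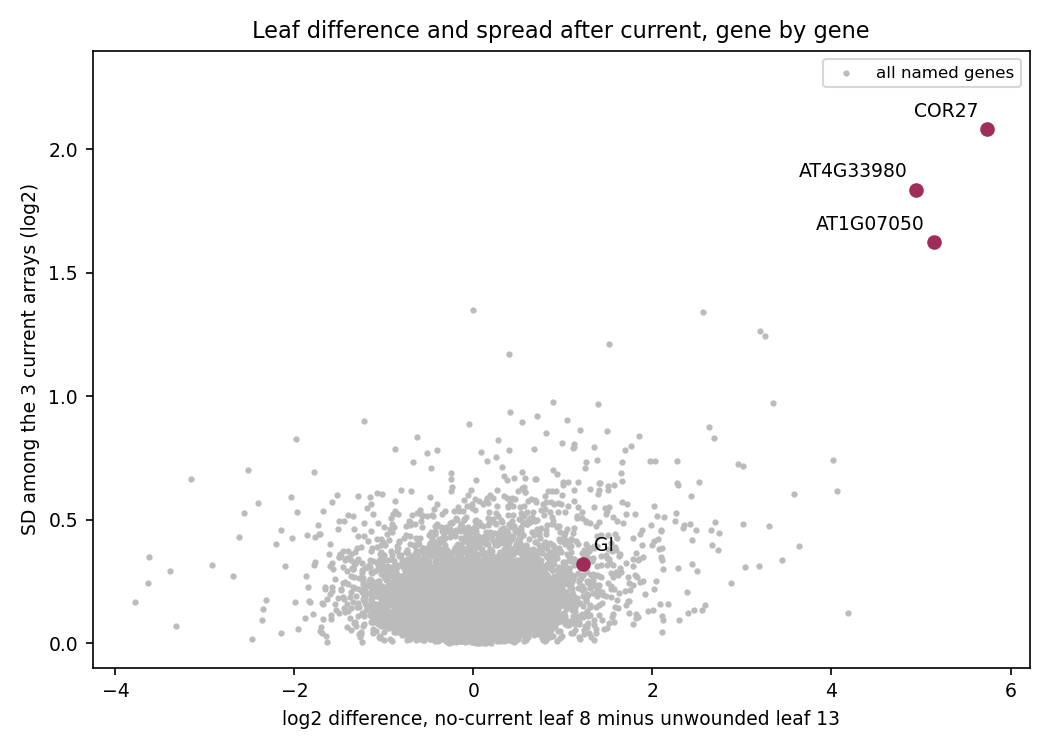
The difference between wired leaf 8 without current and unwounded leaf 13 (horizontal axis, log2) against the SD among the 3 current arrays (vertical axis, log2) for the 13356 named genes, with the 4 genes marked. COR27, AT4G33980 and AT1G07050 lie alone at the upper right, while GI lies inside the cloud.

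Set on the scale between both control leaves, the current arrays lay at very different points. For COR27, current replicates 1, 2 and 3 lay 2.24%, 41.1% and 74.7% of the way, in log2 units, from the no-current mean down to the unwounded leaf 13 mean. AT1G07050 was 6.39%, 34.2% and 69.4% of the way, and GI 22.0%, 55.3% and 74.1%. AT4G33980 was 14.7%, 75.3% and 82.1% of the way. The unwounded end of this scale is near the low end of the array for all but GI. The positions of the 4 genes ran from 2.24% to 22.0% in replicate 1 and from 34.2% to 75.3% in replicate 2. In replicate 3 they ran from 69.4% to 82.1%, with differences in log2 units from -0.91 to -4.29. The genes were chosen by these current values, so nothing is read from their positions.

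Deviations from the group means were compared between the 4 genes. Over the 12 arrays COR27 correlated with AT1G07050 at r = 0.986, with AT4G33980 at r = 0.915 and with GI at r = 0.650. The points share arrays, and for COR27, AT4G33980 and AT1G07050 the SD on the current arrays was far above that of the other groups. Since the genes were chosen by their values on those arrays, a high r over 12 arrays follows from the choice, and nothing is read from it. Over the 9 arrays without current the same values were 0.715, 0.226 and 0.017, and AT4G33980 and AT1G07050 were at -0.397. GI was at -0.182 with AT4G33980 and at 0.450 with AT1G07050 there. Without the current arrays, AT4G33980 and GI thus both showed little likeness to COR27.

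Among 3236 genes with a range of at least 1 over the 12 arrays, several deviated much like these genes. PWD (AT5G26570), which phosphorylates starch for its breakdown, was the closest to COR27 (r = 0.982, 12 arrays) and to the mean of the 4 genes (r = 0.974). It read 9.39, 9.26 and 9.39 without current and 9.04, 8.37 and 7.80 in current replicates 1, 2 and 3. AT1G68220 (r = 0.982) and AT5G39410 (r = 0.980) came next for COR27. AT2G21130 was closest to AT1G07050 (r = 0.983) and read 6.73, 5.89 and 5.01 after current, against 6.81, 6.68 and 6.81 without. AT1G68220 and GLDH, an enzyme of ascorbate synthesis, followed at r = 0.979 for each.

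For AT4G33980 the closest were TUB9, a beta-tubulin gene (r = 0.981), AT1G17665 (r = 0.981) and AT5G43960 (r = 0.969). AT1G17665 read 5.22, 3.07 and 2.74 in current replicates 1, 2 and 3, with means of 5.14 without current and 2.58 in unwounded leaf 13, so its replicate 1 was not below the controls. GI was most like AT2G34480 (r = 0.943), AT4G35130 (r = 0.912) and PRA1.B6 (r = 0.908). Those kept r at 0.937, 0.919 and 0.932 over the 9 arrays without current, whereas PWD was at -0.044 with COR27 there. After the mean of the 4 genes, the closest following PWD were Cpn60beta2, a chaperonin subunit (r = 0.970), AT5G62720, MAP1C, AT2G21130, AT5G26670, WLIM2a, AT5G46580, AT4G12750 and CHL, a chloroplast lipocalin (r = 0.955). Of these 10 genes, 5 had a higher mean in wired leaf 8 than in unwounded leaf 13, as COR27 had, and 5 a lower one. PWD was at 9.35 against 7.94, and Cpn60beta2 at 6.84 against 9.99.

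**Figure D5:**
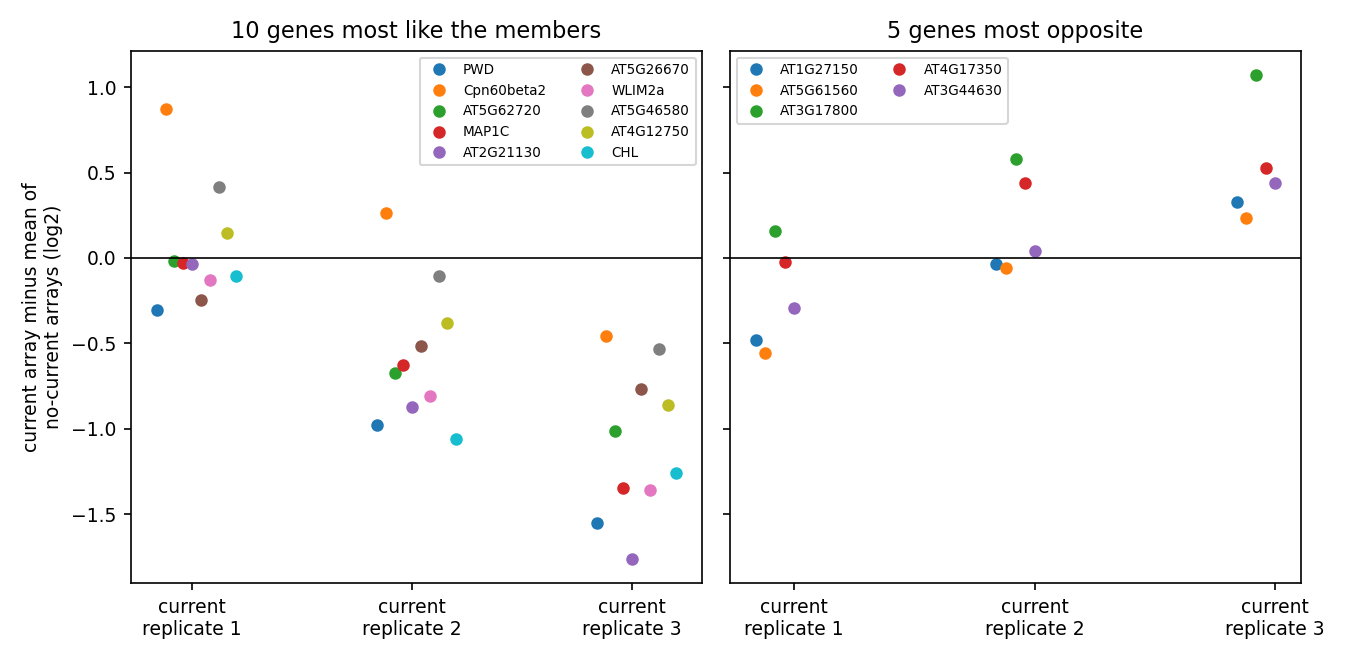
Each current array minus the no-current mean (vertical axis, log2) for the 10 genes whose deviations are most like the mean of the 4 genes (left) and the 5 most opposite genes (right). Current replicate 1 is highest and replicate 3 lowest for the genes on the left, and the reverse holds on the right.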

How the data were processed

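The deposited values are log2 expression values that the authors made with RMA, for which the submitters' processing notes name Affymetrix Power Tools. Versions are not given in the sources used here, and the log base is inferred from RMA and from the range of 1.46 to 13.3. They were used as deposited. Of 22810 probe sets, 64 were controls, 13513 had 1 gene in the platform's table, 503 several and 8730 none. Probe sets of a gene were averaged, which left 13356 genes, of which 13286 matched the reference by identifier. Each of the 4 genes had 1 probe set. No sequence or coordinate is reported, since no build is named.

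Tests used limma 3.58.1 in R 4.3.3, with 1 mean per group over 12 arrays, two-sided, Benjamini-Hochberg adjustment over all genes and a threshold of 0.05. The fit was tested on simulated data with 1 SD per gene in all groups, a setting that COR27, AT4G33980 and AT1G07050 do not meet. An exact test of 3 against 3 arrays cannot go below p = 0.1. The 4 genes, the lists and the settings were chosen with earlier results of these data known. Named genes were the 4 genes, up to 8 measured genes per pathway list, and, by Pearson r of deviations from group means, the 3 genes most like each of the 4 and the 10 most like their mean. AT5G12340, AT5G47330 and the opposite genes were named after their values were seen. Alternatives were the probe set with the highest mean, quantile normalization, median centring, array weights, a robust trend, the compared groups alone, no dim genes, a replicate block and leaving out arrays. Replicate numbers did not pair arrays: deviations of same-numbered arrays correlated with r from -0.07 to 0.04.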

Additional observations from a re-analysis of the deposited data

Results flagged for a closer look

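Among the 12 genes examined, which are the 4 genes and the measured clock, cold, light and flowering genes, 5 had every wounded array above the unwounded arrays and every current array below the no-current arrays. Of all named genes 0.232% (31 of 13356) had this pattern, and the fall after current is what COR27 and AT1G07050 were chosen by. The change after current minus the change after wounding was -2.66 for COR27 and -3.55 for AT1G07050. For these 2 genes the difference was not tested, because the current arrays served to choose them. It was -1.20 for COR15A (limma adjusted p = 0.00108), -1.21 for COR15B (limma adjusted p = 0.0129) and -1.22 for COR47 (limma adjusted p = 6.81e-04). For LTI30, at -1.91 (limma adjusted p = 0.00172), and STZ, at -2.72 (limma adjusted p = 0.00108), the change after wounding was larger. After current STZ rose by 1.11, and LTI30 was at 0.27 (SE 0.20, limma adjusted p = 0.645), with no direction established. The groups of 3 arrays are too small to single out 1 array by a rule.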

How the results depend on the processing

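The differences between wired leaf 8 and unwounded leaf 13 kept direction and call for the 4 genes under every alternative that gave a value, with leave-one-out ranges of 5.68 to 5.80 for COR27, 4.86 to 5.05 for AT4G33980, 5.04 to 5.25 for AT1G07050 and 1.07 to 1.35 for GI. AT4G33980 has no value without the dimmest 50% of genes, and no replicate block could be fitted for that comparison, since its groups belong to different experiments. The genes were chosen by a comparison that shares the no-current arrays, so these stable calls do not stand apart from the choice.

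After wounding, AT1G07050 was at 1.66 and with a robust trend missed the threshold (limma adjusted p = 0.165). It ranged from 1.58 to 1.77 without 1 array. COR27, at 0.40, passed with the compared groups alone (limma adjusted p = 0.0403) and without the 3 current arrays, and ranged from 0.30 to 0.50 without 1 array. GI turned to -0.0086 without unwounded replicate 1 and to -0.039 without wounded replicate 3, with or without the current arrays, with 0.15 as its highest value, and AT4G33980 ranged from 0.0045 to 0.19. The replicate block left the calls of the 4 genes after wounding as they were, with AT1G07050 at limma adjusted p = 0.0118, and gave 1771 calls in place of 1900 after wounding and 547 in place of 529 after current.

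The count of genes called after current was 291 when both groups were fitted alone and 266 to 728 without 1 array. Of the cold genes, 1 was called after current, 2 without the dimmest 50% of genes, 2 with the replicate block, and 0 to 3 without 1 array. Counts after wounding ranged from 1405 to 1892 and between control leaves from 3576 to 3995 without 1 array. The descriptions moved with single arrays: the SD among current arrays ranged from 1.36 to 2.94 for COR27, 0.24 to 2.36 for AT4G33980, 1.01 to 2.29 for AT1G07050 and 0.16 to 0.45 for GI. The small number of arrays and, for 3 of the genes, levels near the low end of the scale in leaf 13 limit these values.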

Other observations

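Some genes deviated in the opposite way to the 4 genes. AT1G27150 had the lowest r with their mean (r = -0.957, 12 arrays) and read 6.08, 6.52 and 6.88 in current replicates 1, 2 and 3, against 6.43, 6.66 and 6.57 without current. AT5G61560 was at r = -0.943, AT3G17800 at -0.935, AT4G17350 at -0.916 and AT3G44630 at -0.915. AT3G17800 read 9.83, 10.24 and 10.74 after current. HYH, chosen for the light list, also read highest in current replicate 3, at 3.32, 3.60 and 4.27 in replicates 1, 2 and 3.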
